A study of Homo sapiens with 6 samples.

Results

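The genes described here encode the REDD and sestrin stress proteins and the core regulators of mTORC1, the nutrient-sensing kinase complex. They were chosen by name, with earlier results of these data known. All 10 (DDIT4, DDIT4L, SESN1, SESN2, SESN3, TSC1, TSC2, MTOR, RPTOR and DEPTOR) were found among the 44591 genes listed in each count file. RNA was collected from A2780, a human ovarian cancer cell line labelled as wild type, after 48 h in DMEM with serum. There were 3 untreated libraries and 3 libraries from cells given 40 ng/ml recombinant human CRMP2 (r-CRMP2), the protein that the study follows from cancer associated fibroblasts to tumor cells. The r-CRMP2 was added to the medium, and the labels name no vehicle or inactive protein for the untreated cells. All libraries come from 1 cell line, and the labels do not say whether replicates were separate cultures, so the p-values measure the spread between these libraries. As in any bulk RNA sample, a change in the number of cells that express a gene and a change in RNA per cell cannot be told apart.

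mTORC1 consists of the kinase MTOR, its scaffold RPTOR (raptor) and smaller partners, and promotes protein synthesis and growth when growth factors, amino acids and energy are sufficient. TSC1 and TSC2 (hamartin and tuberin) form a complex that switches off the GTPase RHEB, the direct activator of mTORC1. DDIT4 (REDD1) is induced by hypoxia and other stresses and restrains mTORC1 through the TSC complex, the sestrins restrain it mainly through the GATOR complexes of the amino acid branch, and DEPTOR binds to MTOR and inhibits it. The study raised the question of whether PI3K-Akt-mTOR signaling, which can act upstream of HIF-1α, responds to CRMP2, and measured that on protein. The RNA data show the level of the transcripts only, not the activity of the kinase.

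The promoters of 3 genes are printed because they belong to the member that rose most, its near-silent paralog and the kinase itself. The letters are 300 bases of RefSeq sequence (GRCh38.p14), from 250 bases before to 50 bases after the annotated start, on the strand of the gene. Capitals mark ACGTG or GCGTG on either strand, the core letters of the hypoxia response element.

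DDIT4, chr10:72273674-72273973, plus strand: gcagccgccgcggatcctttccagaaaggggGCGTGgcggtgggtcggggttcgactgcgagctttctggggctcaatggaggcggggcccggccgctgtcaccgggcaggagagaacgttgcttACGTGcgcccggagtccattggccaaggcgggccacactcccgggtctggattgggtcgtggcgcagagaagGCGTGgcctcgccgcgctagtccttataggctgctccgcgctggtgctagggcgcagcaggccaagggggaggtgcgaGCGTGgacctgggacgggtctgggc
DDIT4L, chr4:100190419-100190718, minus strand: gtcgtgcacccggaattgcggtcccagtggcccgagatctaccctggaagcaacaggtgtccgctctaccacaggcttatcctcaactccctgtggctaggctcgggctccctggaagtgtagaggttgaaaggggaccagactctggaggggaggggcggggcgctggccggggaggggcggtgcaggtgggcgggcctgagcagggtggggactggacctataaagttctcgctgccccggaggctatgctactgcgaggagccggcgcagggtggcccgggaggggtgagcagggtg
MTOR, chr1:11262502-11262801, minus strand: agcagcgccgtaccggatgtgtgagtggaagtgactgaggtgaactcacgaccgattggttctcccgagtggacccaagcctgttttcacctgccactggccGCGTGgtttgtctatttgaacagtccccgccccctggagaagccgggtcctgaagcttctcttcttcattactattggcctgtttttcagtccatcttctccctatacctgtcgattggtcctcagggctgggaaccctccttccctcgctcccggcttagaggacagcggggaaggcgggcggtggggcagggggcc

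The DDIT4 window held 4 of these cores, with ACGTG at positions -125 to -121 and GCGTG at -219 to -215, -53 to -49 and 26 to 30 relative to the start. Of all 35116 promoter windows of the same length, 48.4% held at least 1 core and 4.4% held at least 4. The DDIT4L window held none and the MTOR window held 1, at -148 to -144. Promoters of 9 members were matched by symbol, with 12 windows in all. Cores were also found in 1 of the 3 windows of SESN1, in 1 of the 2 windows of TSC2 and in the window of RPTOR. The TSC2 window also held TGATGNAA, the letters of the ATF4 element, at -110 to -103, overlapping an ACGTG core, and 3.62% of all windows hold TGATGNAA. None of the 12 windows held GTAAACA, the letters of a FOXO element, which 3.42% of all windows hold. A match of so few letters is a description of the window and not evidence of binding.

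Counts between 21888530 and 25711353 were available per library. Group differences were tested by the quasi-likelihood method of edgeR. Library totals were first corrected for composition by TMM scaling, and CPM below are counts scaled to the same corrected total. The p-values were adjusted by Benjamini-Hochberg over the 16222 genes that passed the filter on low counts, and an edgeR adjusted p refers to this test throughout. Of these genes, 28.2% passed a threshold of 0.05 as higher and 30.1% as lower, and the 3 treated libraries did not overlap the 3 untreated libraries in 64.2% of genes. Scaling mattered. Across all tested genes the median log2 fold change was -0.03 after TMM but -0.34 when libraries were divided by their totals alone (library size alone), where 2171 genes were called higher and 8449 lower in place of 4574 and 4875. Of 5 epithelial markers, KRT8 and KRT18 were abundant (mean 1266 and 1251 CPM in untreated cells), whereas EPCAM (4.44), KRT19 (1.40) and CDH1 (0.125) were low. Of 5 ovarian epithelial markers, MSLN rose from 245 to 358 CPM and MUC16 fell from 42.7 to 33.2 CPM, PAX8 was at 4.06 CPM in untreated cells, and WT1 and WFDC2 had means of at most 0.0739 CPM in either group. The leukocyte marker PTPRC had means of 0.0527 CPM in untreated and 0.113 CPM in r-CRMP2 libraries. Of 7 fibroblast markers, 2 rose (COL1A2 and LUM), 2 fell (COL1A1 and PDGFRB) and 3 were not called, with FAP at means of 0.263 and 0.319 CPM. Their sum lay between 514 and 590 CPM in the untreated and between 442 and 460 CPM in the r-CRMP2 libraries, most of it COL1A1, and the part of these markers in the results was not tested.

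Of the 10 genes, 9 passed the low-count filter and DDIT4L did not. DDIT4 and DEPTOR rose, SESN1, TSC2, MTOR and RPTOR fell, and SESN2, SESN3 and TSC1 did not pass the test (edgeR's quasi-likelihood test, Benjamini-Hochberg adjustment over all genes tested). That is 22.2% higher and 44.4% lower of the 9 tested, beside the 28.2% and 30.1% of all genes. The median log2 fold change of the 9 was -0.16. Only DDIT4 was past a log2 fold change of 1, the threshold of the study, as were 14.0% of all genes tested in either direction. In 8 of the 9 genes the groups did not overlap in TMM-scaled CPM, as in 64.2% of all genes tested. In the deposited TPM, by contrast, SESN3 and DEPTOR overlapped and SESN2 did not.

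**Figure D1:**
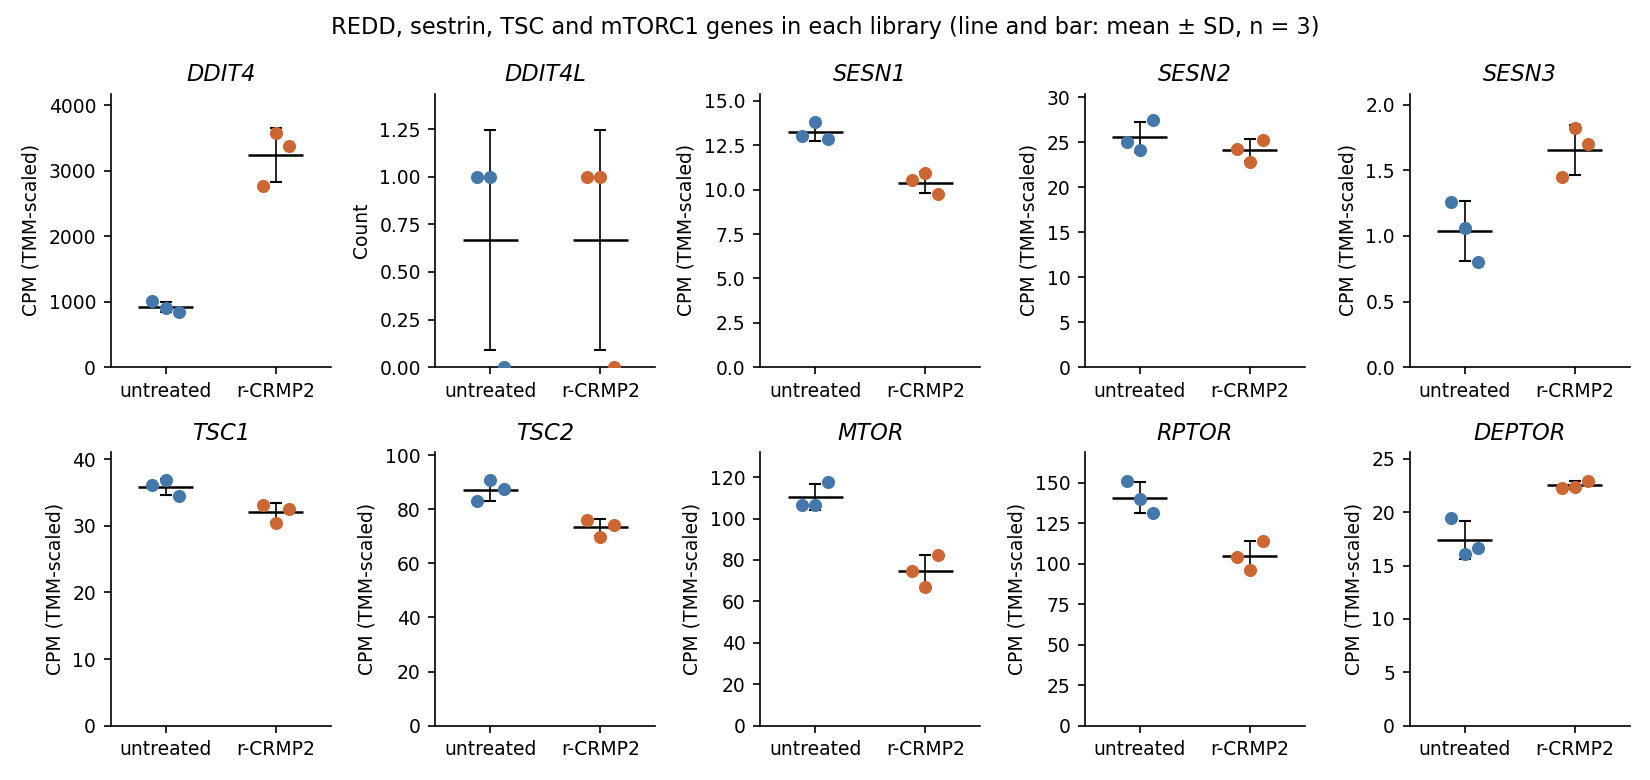
TMM-scaled CPM of each gene in the 3 untreated (blue) and 3 r-CRMP2 (orange) libraries, with raw counts for DDIT4L; lines and bars are mean ± SD (n = 3) and each vertical axis starts at 0. DDIT4 stands far apart between the groups, MTOR, RPTOR, TSC2 and SESN1 are lower with r-CRMP2, and only SESN2 overlaps among the 9 genes tested.

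DDIT4 (chromosome 10, 74033677 to 74035794, plus strand, in the deposited hg19 coordinates) was the most abundant member and changed most. It reached 1003, 910 and 841 CPM in untreated replicates 1, 2 and 3, and 2774, 3574 and 3378 CPM in r-CRMP2 replicates 1, 2 and 3. The lowest treated library lay far above the highest untreated one. The mean rose from 918 ± 81.5 to 3242 ± 417 CPM (± SD, n = 3 per group), a 3.53-fold rise. The log2 fold change was 1.82 (SE 0.13, edgeR adjusted p = 4.30e-12). It was 1.51 with library size alone.

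In expression per length, DDIT4 moved from rank 107, 111 and 114 among all genes in the untreated libraries to rank 43, 32 and 30 in the r-CRMP2 libraries. It took 0.110%, 0.102% and 0.0942% of all counts in the untreated libraries, but 0.255%, 0.314% and 0.302% in the treated ones. REDD1 mRNA was thus among the most abundant transcripts of these cells in both groups.

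An antisense gene without a symbol, ENSG00000269926.1 (chromosome 10, 74034673 to 74035738, minus strand), lies inside DDIT4 in the deposited coordinates. It was counted at between 5528 and 19226 reads per library and had a log2 fold change of 1.82 (edgeR adjusted p = 8.76e-12). Its counts were 24.5%, 24.7% and 24.0% of those of DDIT4 in untreated replicates 1, 2 and 3, and 23.9%, 24.6% and 24.8% in r-CRMP2 replicates 1, 2 and 3. The share was the same to within 1 percentage point in all 6 libraries. Whether the counting used strand is not given in the sources used here, so reads of DDIT4 and of this antisense gene cannot be told apart. With the counts of both added together, the log2 fold change of DDIT4 was 1.82.

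The 5 genes whose profile over the 6 libraries was nearest to that of DDIT4 were this antisense gene, H1F0, DUSP5, RAB3A and EFNA3, out of 9900 genes with a mean log2 CPM of at least 3. The measure was the Euclidean distance between log2 CPM values taken relative to the untreated mean, and it was 0.05 for the antisense gene and between 0.15 and 0.17 for the other 4. Their log2 fold changes lay between 1.75 and 1.90. H1F0 encodes a linker histone, DUSP5 a phosphatase of ERK, RAB3A a small GTPase of vesicle release, and EFNA3 an ephrin.

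DDIT4L (REDD2, chromosome 4, 101107027 to 101111655), the paralog of DDIT4 that also restrains mTORC1, was close to silent. It had 1, 1 and 0 counts in untreated replicates 1, 2 and 3, and 1, 1 and 0 counts in r-CRMP2 replicates 1, 2 and 3. No change of DDIT4L could be detected at this depth, and no fold change is given. A gene that overlaps it in the deposited coordinates (ENSG00000245322.2) had between 15 and 34 counts per library.

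Among the sestrins, SESN1 fell, whereas SESN2 and SESN3 did not pass the test. SESN1 (chromosome 6, 109307640 to 109415708), known as a FOXO target, had 13.1, 13.8 and 12.8 CPM in untreated replicates 1 to 3, against 10.5, 10.9 and 9.75 CPM with r-CRMP2. All treated libraries were below all untreated ones. SESN1 fell by 0.35 on the log2 scale (SE 0.06, edgeR adjusted p = 0.00838).

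SESN2 (chromosome 1, 28585963 to 28609002), the sestrin known to bind leucine and to respond to ATF4, had 25.1, 24.2 and 27.4 CPM in the untreated libraries. It had 24.2, 22.8 and 25.3 CPM in the r-CRMP2 libraries, so the groups overlapped. The log2 fold change was -0.08 (SE 0.07, edgeR adjusted p = 0.412). With library size alone it was -0.39 and passed (edgeR adjusted p = 0.000826), so the call on SESN2 depends on the scaling.

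SESN3 (chromosome 11, 94898677 to 94965705), known as a FOXO target, was the lowest sestrin, with 35, 26 and 22 counts in untreated replicates 1 to 3, against 31, 36 and 39 counts with r-CRMP2. After TMM scaling these were 1.26, 1.06 and 0.804 CPM and 1.45, 1.82 and 1.70 CPM. The groups did not overlap after scaling, although the raw counts did. The log2 fold change of 0.67 (SE 0.20) missed the threshold (edgeR adjusted p = 0.0552). It passed with RLE size factors (adjusted p = 0.0489), with at least 10 counts in every sample (0.0365), without untreated replicate 1 (0.0428) and without r-CRMP2 replicate 1 (0.0493), each from the edgeR test, and with library size alone it was 0.36 (adjusted p = 0.279).

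TSC2 fell and TSC1 did not pass the test. TSC2 (chromosome 16, 2097896 to 2138721), the subunit with GTPase-activating function toward RHEB, had 83.0, 90.7 and 87.5 CPM in untreated replicates 1 to 3, against 76.0, 69.9 and 74.0 CPM with r-CRMP2. The treated libraries were all lower, by a narrow margin. TSC2 fell by 0.25 on the log2 scale (SE 0.05, edgeR adjusted p = 0.00290). The gene meets PKD1 tail to tail with an overlap of 11 bases in the deposited coordinates.

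TSC1 (chromosome 9, 135766735 to 135820020), the subunit that stabilizes TSC2, had 36.1, 36.8 and 34.5 CPM in untreated replicates 1 to 3, against 33.1, 30.4 and 32.4 CPM with r-CRMP2. The groups did not overlap, and the log2 fold change of -0.16 (SE 0.05) did not pass the test (edgeR adjusted p = 0.0699). With library size alone it was -0.47 (adjusted p = 5.36e-05), and with at least 10 counts in every sample it was -0.18 (adjusted p = 0.0467), both from the edgeR test.

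Of the complex itself, MTOR and RPTOR fell and DEPTOR rose. MTOR (chromosome 1, 11166588 to 11322608), the kinase of both mTORC1 and mTORC2, had 107, 107 and 118 CPM in the untreated libraries. It had 74.7, 66.9 and 82.5 CPM in the r-CRMP2 libraries, all below the lowest untreated one. The mean fell from 110 ± 6.30 to 74.7 ± 7.79 CPM (± SD of 3 libraries per group), or by a log2 fold change of -0.56 (SE 0.10, edgeR adjusted p = 3.03e-06).

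RPTOR (chromosome 17, 78518625 to 78940173), the scaffold that recruits mTORC1 substrates, had 151, 140 and 131 CPM in the untreated libraries. It had 104, 95.8 and 114 CPM in the r-CRMP2 libraries, again without overlap. RPTOR fell by 0.43 on the log2 scale (SE 0.09, edgeR adjusted p = 4.90e-05). MTOR and RPTOR were lower in all alternatives run, with log2 fold changes from -0.87 to -0.48 and from -0.74 to -0.36.

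DEPTOR (chromosome 8, 120885895 to 121063157), the inhibitory partner of MTOR, had 19.5, 16.1 and 16.6 CPM in untreated replicates 1 to 3, against 22.3, 22.3 and 22.9 CPM with r-CRMP2. All treated libraries were higher, and they lay closer to each other than the untreated ones did. DEPTOR rose by 0.37 on the log2 scale (SE 0.08, edgeR adjusted p = 0.00176). With library size alone it was 0.06 and did not pass (edgeR adjusted p = 0.569), whereas with RLE size factors it was 0.39 (edgeR adjusted p = 0.00102), so the rise was called only where library totals were corrected for composition. A gene that shares 834 bases with it (ENSG00000245330.4) had between 9 and 28 counts per library.

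**Figure D2:**
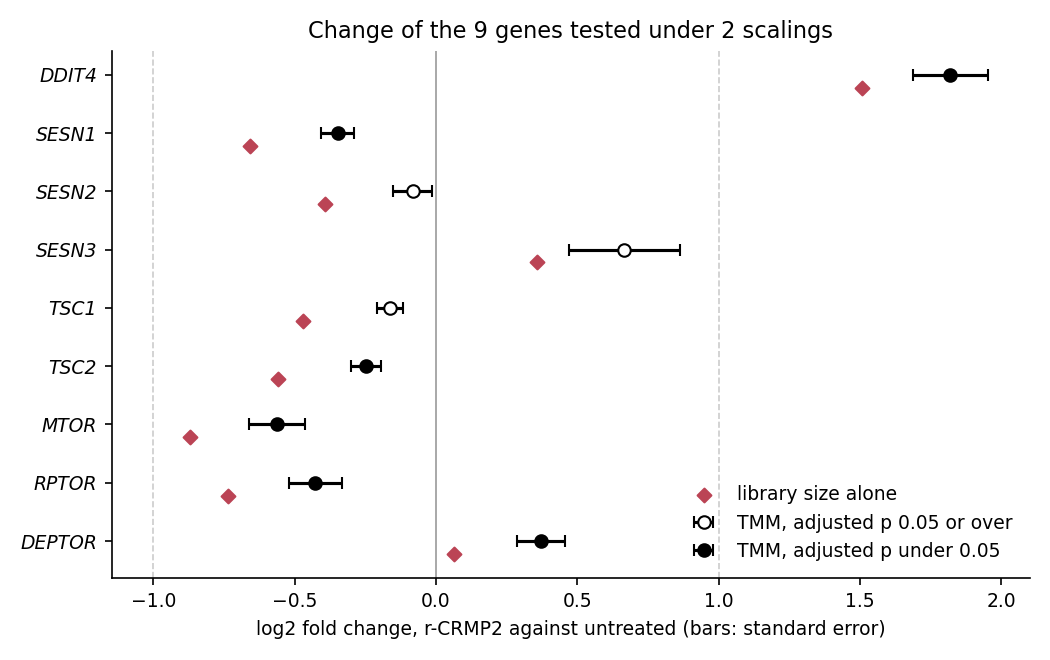
Log2 fold changes (horizontal axis, r-CRMP2 against untreated) of the 9 genes tested with TMM scaling (circles, filled where the adjusted p-value was under 0.05, bars are standard errors) and with library size alone (diamonds). Every diamond lies to the left of its circle by a similar step, DDIT4 stays past the dashed line at 1, and DEPTOR moves from 0.37 to 0.06, where it is not called.

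The deposited gene length, which is shorter than the span between the coordinates, differs between the members. It runs from 1749 bases (DDIT4) to 9828 bases (SESN3), and MTOR has 8725. The classes below use this length. Over all genes tested, the median log2 fold change was 0.05 for genes of up to 2000 bases, and -0.06, -0.06 and -0.04 for genes of 2000 to 4000, 4000 to 8000 and over 8000 bases. The share called lower was 21.3% in the shortest class and between 33.0% and 34.9% in the other 3. The part of length in the falls of MTOR and RPTOR was not tested.

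Levels of different genes were compared per length, as the deposited TPM. In untreated cells the order was DDIT4 (1278 TPM), RPTOR (50.02), TSC2 (36.6), MTOR (30.8), SESN2 (17.6), DEPTOR (16.1), TSC1 (10.1), SESN1 (8.88), SESN3 (0.258) and DDIT4L (0.0236), as means of 3 libraries. SESN2 and DEPTOR overlapped between libraries, and no other neighbours did. With r-CRMP2, DDIT4 stood at 3592 TPM, followed by RPTOR (29.8) and TSC2 (24.6), which overlapped, and by MTOR (16.7) and DEPTOR (16.6), which also overlapped. SESN2 (13.3), TSC1 (7.23), SESN1 (5.57), SESN3 (0.327) and DDIT4L (0.0238) followed in the same order as in untreated cells without overlap.

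**Figure D3:**
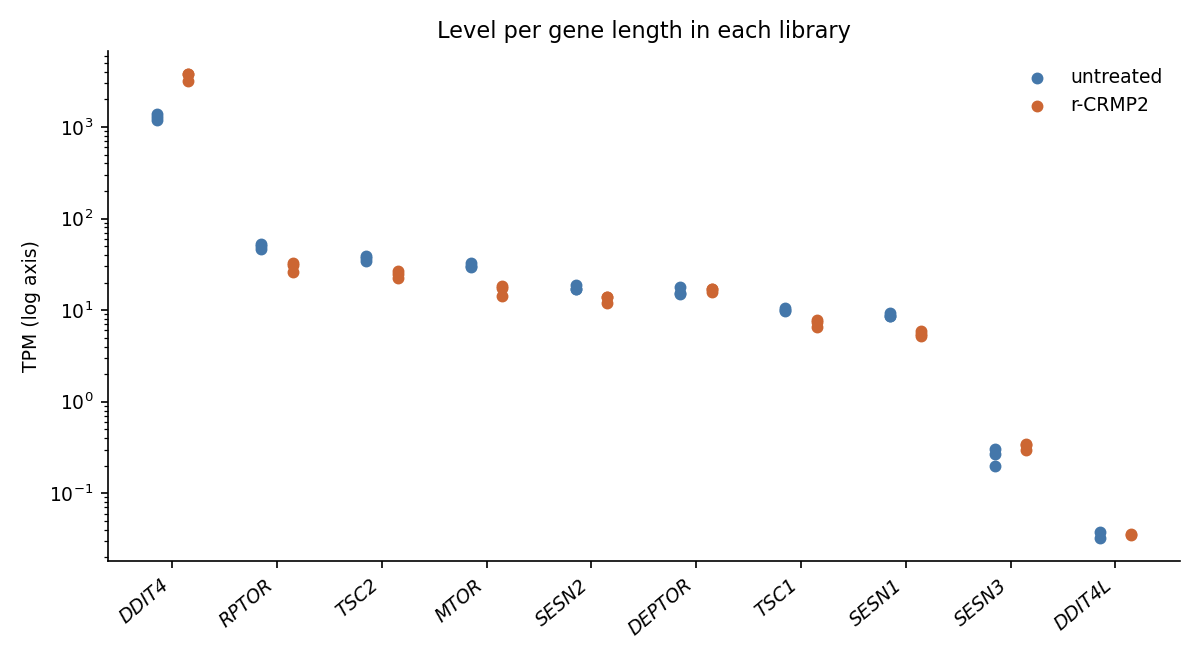
TPM (log axis) of the 10 genes in each untreated (blue) and r-CRMP2 (orange) library, ordered by the untreated mean; libraries with 0 counts of DDIT4L are not drawn. The lowest DDIT4 value is 1176 TPM, the highest value of any other member is 52.7 TPM (RPTOR), and DDIT4L reaches at most 0.0382 TPM.

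Ratios between members of the same library do not depend on the scaling between libraries, and 7 were computed. The smallest p-value that the exact permutation test of 3 against 3 libraries can give is 0.1, so none of them could pass a threshold of 0.05. The log2 ratio of DEPTOR to MTOR was -2.66 ± 0.19 in untreated and -1.72 ± 0.13 in r-CRMP2 libraries (± SD, n = 3 per group), a difference of 0.94 (exact permutation test, two-sided, p = 0.1, adjusted p = 0.14 over 7 ratios). In TPM, there were 0.604, 0.499 and 0.468 DEPTOR transcripts per MTOR transcript in the untreated libraries, against 0.987, 1.105 and 0.920 in the treated ones. The groups stood apart, and the treated libraries lay on both sides of 1. This ratio pairs a gene called higher with a gene called lower, so its separation is no added result. In TPM, DEPTOR alone overlapped between the groups and MTOR alone did not.

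The ratio of RPTOR to MTOR differed less. In TPM it was 1.80, 1.67 and 1.42 in untreated replicates 1 to 3, against 1.78, 1.82 and 1.76 with r-CRMP2, and the groups overlapped (difference of the log2 ratio 0.14, exact permutation p = 0.3, two-sided, adjusted p = 0.3). For TSC1 to TSC2 the log2 ratio differed by 0.09 (exact permutation p = 0.1, two-sided, adjusted p = 0.14). The untreated mean was -1.28 and the r-CRMP2 mean -1.19.

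Among the sestrins, the log2 ratio of SESN2 to SESN1 was 0.94 ± 0.14 in untreated and 1.21 ± 0.15 in r-CRMP2 libraries (± SD, n = 3 per group), a difference of 0.26 (exact permutation p = 0.2, two-sided, adjusted p = 0.233). The log2 ratio of SESN2 to SESN3 differed by -0.74 and that of SESN1 to SESN3 by -1.01, treated against untreated (exact permutation p = 0.1, two-sided, adjusted p = 0.14 for each). The TPM of all 3 sestrins summed to 25.9, 26.6 and 27.9 in the untreated and to 20.1, 17.9 and 19.7 in the r-CRMP2 libraries. SESN2 supplied between 63.6% and 71.5% of that sum in every library. Unlike the ratios, the sum depends on the scaling between libraries, and TPM carry no TMM correction. After TMM the log2 fold change was -0.35 for SESN1, -0.08 for SESN2 and 0.67 for SESN3, and only SESN1 passed the test. The sum was not tested under that scaling. The ratio of DDIT4 to DDIT4L is left out, because it rests on counts of 0 and 1.

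**Figure D4:**
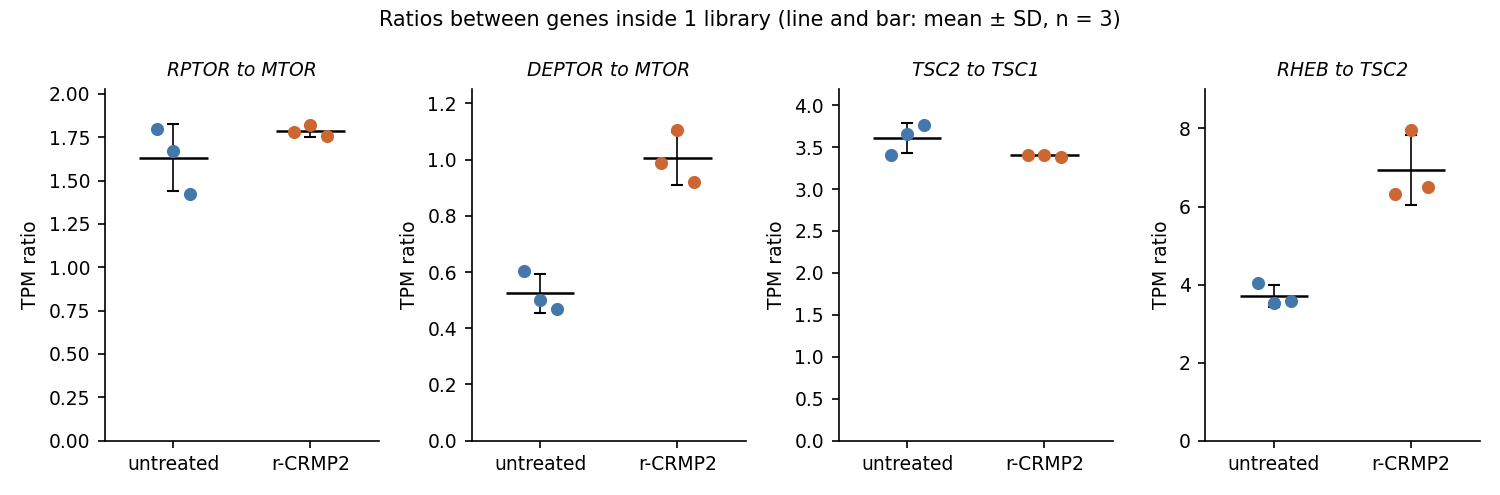
Ratios of TPM between genes of the same library in the 3 untreated (blue) and 3 r-CRMP2 (orange) libraries; lines and bars are mean ± SD (n = 3) and the axes start at 0. DEPTOR to MTOR and RHEB to TSC2 stand apart between the groups, and RPTOR to MTOR overlaps. TSC2 to TSC1 is separated only by 3.40947 (untreated replicate 1) against 3.40921 (r-CRMP2 replicate 2).

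The rest of the pathway was described with 6 lists of 96 genes, of which 95 were found in the files and 92 were tested. Of the 92, 30 were higher and 29 lower (32.6% and 31.5%, beside 28.2% and 30.1% of all genes tested), and the median log2 fold change was -0.03, the same as over all genes. The lists thus moved in both directions.

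Among 10 partners of mTORC1 and mTORC2, 3 rose (30%), 4 fell (40%) and 3 did not pass the test, beside 28.2% and 30.1% of all genes tested. The median log2 fold change was -0.08. With library size alone 7 were lower, beside 8449 of all 16222 genes. RHEB, the activator that TSC2 switches off, rose from 115 ± 4.10 to 181 ± 15.6 CPM (± SD of 3 libraries per group), or by a log2 fold change of 0.65 (edgeR adjusted p = 1.31e-07). The TPM ratio of RHEB to TSC2 was between 3.52 and 4.03 in the untreated and between 6.33 and 7.97 in the r-CRMP2 libraries. It was not among the 7 ratios above, and it pairs a gene called higher with a gene called lower, so its separation is no added result. RICTOR, the scaffold of mTORC2, rose by 0.61 on the log2 scale. PRR5L, a partner of mTORC2, fell by 0.88, and TTI1, a cochaperone in the assembly of MTOR and related kinases, fell by 0.40. MLST8, the subunit shared by both complexes, did not pass the test (log2 fold change -0.03, edgeR adjusted p = 0.694), but with library size alone it was lower by the test (-0.35).

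In the amino acid branch, 25 genes were tested, of which 5 rose (20%), 7 fell (28%) and 13 did not pass the test. Of all genes tested, 28.2% rose and 30.1% fell. With library size alone 14 of the 25 were lower, beside 8449 of all 16222 genes. RRAGA, one of the Rag GTPases that bring mTORC1 to the lysosome, rose by 0.63 on the log2 scale, and FNIP1, a partner of folliculin, rose by 0.69. C12orf66, a KICSTOR subunit, fell by 0.95, and SLC38A9, the lysosomal arginine sensor, fell by 0.89. Both are low, with means of 4.13 and 3.33 CPM in untreated cells. Of the GATOR2 complex, to which sestrins bind, SEH1L and WDR24 fell by 0.74 each and SEC13 rose by 0.56, whereas MIOS (-0.23) and WDR59 (-0.02) did not pass the test with TMM and were called lower with library size alone.

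In the AMPK branch, 12 genes were tested, of which 3 rose (25%), 2 fell (16.7%) and 7 did not pass, beside 28.2% and 30.1% of all genes tested. With library size alone 7 were lower, beside 8449 of all 16222 genes. Without untreated replicate 1, or without r-CRMP2 replicate 2, only 1 was lower. PRKAB2, a regulatory subunit of the energy sensor AMPK, rose from 27.0 ± 1.12 to 77.8 ± 6.81 CPM (± SD of 3 libraries per group), or by a log2 fold change of 1.52 (edgeR adjusted p = 7.77e-12). CAB39, a partner of the AMPK kinase LKB1, rose by 0.54, and CAMKK2, the calcium-dependent kinase of AMPK, fell by 0.52. The catalytic subunit PRKAA1 did not pass the test (log2 fold change -0.11), but was called lower with library size alone (-0.42) and without r-CRMP2 replicate 1 (-0.17).

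In the PI3K-AKT branch, 16 genes were tested, of which 4 rose (25%), 7 fell (43.8%) and 5 did not pass, beside 28.2% and 30.1% of all genes tested. The median log2 fold change was -0.30. With library size alone 1 was higher and 11 lower, beside 2171 and 8449 of all 16222 genes. Without r-CRMP2 replicate 3, 2 were higher. The insulin receptor substrates went apart. IRS2 rose from 73.7 ± 8.46 to 234 ± 25.6 CPM, and IRS1 fell from 58.0 ± 3.07 to 25.5 ± 4.95 CPM (± SD, n = 3 per group). Their log2 fold changes were 1.67 (adjusted p = 9.59e-12) and -1.18 (adjusted p = 1.12e-08), both from the edgeR test. PHLPP2, a phosphatase of AKT, fell by 0.85.

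Of 16 substrates and effectors, 6 rose (37.5%), 7 fell (43.8%) and 3 did not pass, beside 28.2% and 30.1% of all genes tested. With library size alone 3 were higher, beside 2171 of all 16222 genes. ULK1, the autophagy kinase that mTORC1 inhibits, rose from 149 ± 7.82 to 263 ± 12.9 CPM (± SD of 3 libraries per group), or by a log2 fold change of 0.82. The translation repressors moved oppositely: EIF4EBP1 rose by 0.73 and EIF4EBP2 fell by 1.15 on the log2 scale. EIF4EBP3, with 16 to 69 counts, fell by 0.74, but did not pass without untreated replicate 3 (-0.62) or without r-CRMP2 replicate 2 (-0.49). PDCD4, another translation inhibitor, fell by 0.83, and RPS6KB1, the S6 kinase gene, fell by 0.57.

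Of 13 transcription factors known to act on REDD or sestrin genes, 9 rose (69.2%, beside 28.2% of all genes tested), 2 fell and 2 did not pass, with a median log2 fold change of 0.42. With library size alone, 4 of the 13 rose, beside 2171 of all 16222 genes. The list was chosen with earlier results of these data known, so its share is a description and no test of enrichment. CEBPB rose by 1.53 and FOXO3 by 1.13 on the log2 scale, and FOXO4 fell by 0.35. EPAS1, which encodes HIF-2α, rose by 1.08. HIF1A, which encodes HIF-1α, rose by 0.49 and ARNT by 0.31. ATF4 did not pass the test (log2 fold change 0.07, edgeR adjusted p = 0.379), and with library size alone it was lower by the test (-0.25, edgeR adjusted p = 0.000942). Activity of these factors was not measured.

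**Figure D5:**
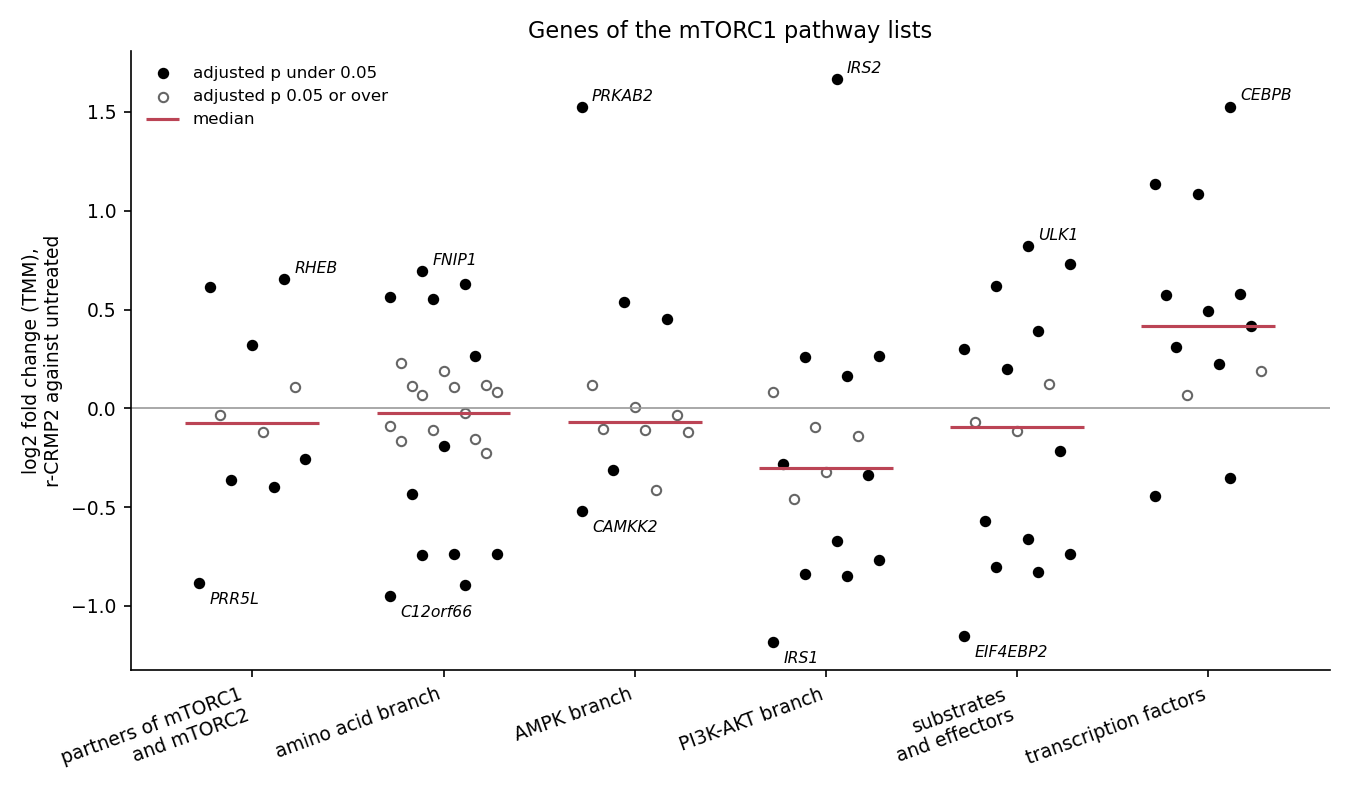
Log2 fold change (TMM, vertical axis) of each gene tested in 6 pathway lists, filled where the adjusted p-value was under 0.05, with the median as a red line and the highest gene and, but for the transcription factors, the lowest gene named. The lists spread on both sides of 0, from -1.18 (IRS1) to 1.67 (IRS2), and the median of the transcription factors is 0.42.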

How the data were processed

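Polyadenylated RNA of 6 A2780 libraries was sequenced. For each library, the authors deposited raw read counts on 44591 genes and TPM values. FastQC, HISAT2, DESeq2 and the build hg19 are named in the submitters' processing notes, whereas the counting tool, the annotation and the use of strand are not given in the sources used here. Counts divided by gene length and rescaled gave the deposited TPM to within 4.72e-06.

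The counts were tested with edgeR 4.0.16 (limma 3.58.1, R 4.3.3): edgeR's filter on low counts, TMM scaling and the quasi-likelihood test, with Benjamini-Hochberg adjustment over all genes and a threshold of 0.05. Standard errors come from the spread of log2 CPM (prior count 2). The test was checked on simulated data in which few genes changed, as many up as down. That check does not bear on the scaling between libraries. Replicates differed beyond sampling noise (chi-square per degree of freedom of 3.62 or more), so each library was kept as its own replicate. The replicate numbers 1 to 3 were used as a block in 1 alternative. DESeq2 1.42.0 was another.

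The members and lists were chosen with earlier results of these data known. Genes named from the lists are the 2 largest rises and 2 largest falls of each list that passed the test without overlap. A few of them were left out and are not reported here. Others (MLST8, SEH1L, WDR24, SEC13, MIOS, WDR59, PRKAA1, EIF4EBP3, RPS6KB1, EPAS1, HIF1A, ARNT, ATF4 and PRKAB1) were named after their values were seen. Of the listed genes, 1 was not found by its symbol.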

Additional observations from a re-analysis of the deposited data

How the results depend on the processing

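Scaled by library size alone, 1 member was higher (DDIT4) and 6 lower (SESN1, SESN2, TSC1, TSC2, MTOR and RPTOR), in place of 2 and 4, and over all genes 2171 were higher and 8449 lower, in place of 4574 and 4875. With a log2 fold change threshold of 1 added, 1 member was higher and 0 lower, and 831 genes were higher and 1437 lower. When replicate number entered as a block, 2 members were higher and 4 lower, and 4456 genes were higher and 4774 lower. Libraries that share a number did not deviate together (correlations across genes of -0.02, 0.0038 and -0.03), and the labels do not pair them. Leaving out 1 library at a time, 2 to 3 members were higher and 4 lower, and 4163 to 4568 genes were higher and 4332 to 4696 lower. DESeq2 called 2 members higher and 4 lower.

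Of 109 values of the members' log2 fold changes under alternatives, 0 changed direction, 1 lost the threshold (DEPTOR with library size alone, 0.06) and 7 came to pass it (SESN2, SESN3 and TSC1, as given above). Of 384 such values for 32 list genes, 2 changed direction: with library size alone ATF4 (-0.25), and without r-CRMP2 replicate 1 MLST8, whose values without 1 library ran from -0.0686 to 0.0230. The fit with the antisense gene added to DDIT4 was chosen after seeing the data. The cause of these changes was not tested. The 7 within-library ratios kept their direction with a prior count of 0.5 or 5 and without each library. Because TPM and length-scaled CPM share the same ratios within a library, the order of levels is that of either scale. Counts of 22 to 39 for SESN3 and of 0 to 1 for DDIT4L limit what can be said of these genes.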

Other observations

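Within the pathway, the TPM ratio of 3 pairs of paralogs stood apart between the groups, which was noticed after the values were seen and is given as a description. The TPM ratio of IRS2 to IRS1 was 1.58 ± 0.106 in untreated and 11.7 ± 1.82 in r-CRMP2 libraries (SD, n = 3 in each group). The ratio of EIF4EBP1 to EIF4EBP2 was 6.12 ± 0.263 and 23.0 ± 5.47, and that of PRKAB2 to PRKAB1 was 0.593 ± 0.0939 and 1.86 ± 0.321. In each of the 3 pairs all treated libraries were above all untreated ones.

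Among the other markers checked, CD68, which encodes a lysosomal membrane protein that also marks macrophages, rose from 23.1 to 74.3 CPM (log2 fold change 1.69, edgeR adjusted p = 3.01e-12), whereas the mean of CD14 was 0.458 CPM in untreated and 0.0613 CPM in r-CRMP2 libraries. CDH5, an endothelial cadherin, fell from 5.29 to 1.35 CPM (log2 fold change -1.96, edgeR adjusted p = 8.48e-08). The 4 members that fell (SESN1, TSC2, MTOR and RPTOR) and DDIT4, which rose, were the members with an ACGTG or GCGTG core in a promoter window, a count made after the values were seen, and DEPTOR has no window here. Of all promoter windows, 48.4% held at least 1 core, and SESN1 with 3 windows and TSC2 with 2 had more places for a match. Any part of the core in these changes was not tested.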
